A study of Mus musculus with 8 samples.

Results

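The UDP-glucuronosyltransferase (UGT) and glutathione S-transferase (GST) genes were examined in liver RNA from female mice treated with dihydrotestosterone (DHT), a potent androgen. Members were chosen by name, with earlier results of these data known. They are the protein-coding mouse genes whose GENCODE M21 symbol begins with Ugt1, Ugt2 or Ugt3, with a GST class letter and a number (Gsta, Gstk, Gstm, Gsto, Gstp, Gstt, Gstz), or with Mgst and a number. The annotation lists 46 such genes and the table of 14317 mouse genes holds 38 of them, namely 17 UGT genes and 21 GST and Mgst genes in 11 families. Ugt1a2, Ugt1a8, Ugt2a1, Ugt2a2, Gsta1, Gsto2, Gstt4 and Mgst2 have no row in the table used here and were not analysed here.

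Both groups were adult females on a western diet (WD). Con-Veh mice carried an empty silastic pellet and Con-DHT mice a 10 mm pellet of DHT. Pellets were implanted at 7 weeks of age, and the mice stayed on the diet for 8.5 weeks and were fasted overnight before collection. The genotype of both groups is labelled WT. One pellet size, a single diet and one time point were sampled, and each group holds 4 liver libraries.

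UGT enzymes sit in the membrane of the endoplasmic reticulum and join glucuronic acid to bilirubin, steroids, bile acids and drugs, so that the products can leave in bile or urine. Cytosolic GSTs and the membrane-bound Mgst enzymes join glutathione to reactive electrophiles or use it to reduce peroxides and disulfides. The liver is the main site of both reactions. Several genes of both families are known to differ between male and female mouse liver.

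The values are normalised read counts, that is, reads per gene divided by a size factor for each library. Reads on mouse genes ranged from 14240001 to 17815944 in Con-Veh and from 13123962 to 15205299 in Con-DHT. Hepatocyte markers were abundant in every library, with a summed value between 774331 and 1578366 in Con-Veh and between 810172 and 993263 in Con-DHT, and 0 of the 6 measured passed the test. Of 6 Kupffer cell and macrophage markers, 4 fell (Clec4f, Cd5l, Vsig4 and Cd68), and the list summed to 6157 to 7610 in Con-Veh and 4211 to 5688 in Con-DHT. Of 6 endothelial markers, Stab2 and Lyve1 fell and the list summed to 3259 to 3620 against 2399 to 2778. Beside these counts, 2.61% of all genes tested passed the test and fell. In bulk liver, fewer cells of a type and less RNA per cell cannot be told apart. Cela1, a pancreatic elastase and the single measured gene of the 4 pancreas markers, was at 59.4 to 84.9 in Con-Veh and 93.9 to 185.8 in Con-DHT and passed the test. None of the measured cholangiocyte, stellate, lymphocyte and erythroid markers passed. The part of these other cells in the values below was not tested.

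All 38 members passed the filter on low values, a mean of at least 10, and were tested with limma on log2(value + 1) in one fit of 14312 genes. Ugt2b38 passed the filter only through Con-DHT, with means of 2.23 in Con-Veh, 19.6 in Con-DHT and 10.9 over all libraries. Its call and its lack of overlap, counted below, are therefore not independent of the filter. Of the members, 8 passed an adjusted p of 0.05, or 21.1%, where 7.21% of all genes tested did so. Gstp1, Ugt2b1, Ugt2b5, Ugt2b38 and Ugt1a6b rose in Con-DHT livers, and higher calls made up 4.60% of all genes tested. Ugt1a1, Ugt1a5 and Gsto1 fell, and lower calls made up 2.61% of all genes. The median log2 fold change (log2FC) over the 38 members was -0.0067, beside -0.0081 over all genes tested. Con-Veh and Con-DHT libraries did not overlap for 10 members, or 26.3%, beside 15.1% of all genes. These were the 8 called genes together with Ugt2b35 and Mgst1. On whole reads recovered from the values, the quasi-likelihood test of edgeR called 8 members (7.15% of all genes) and DESeq2 called 10 (11.0% of all genes), with Ugt2b35 and Mgst3 added. Scaled to the ERCC spike-in RNA, limma called 4 members (4.45% of all genes), namely Gstp1, Ugt2b1, Ugt2b38 and Ugt1a5. The calls of Ugt1a6b, Ugt1a1, Ugt2b5 and Gsto1 were lost under that scaling, with limma adjusted p-values of 0.097, 0.36, 0.44 and 0.92.

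Of 17 UGT genes 6 were called (35.3%, beside 7.21% of all genes tested), 4 higher and 2 lower. Of 21 GST and Mgst genes 2 were called, 1 in each direction. That is 9.52%, close to the 7.21% of all genes. No gene of the Ugt3, Gst alpha, Gst kappa, Gst mu, Gst theta, Gst zeta or Mgst families passed the threshold.

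**Figure D1:**
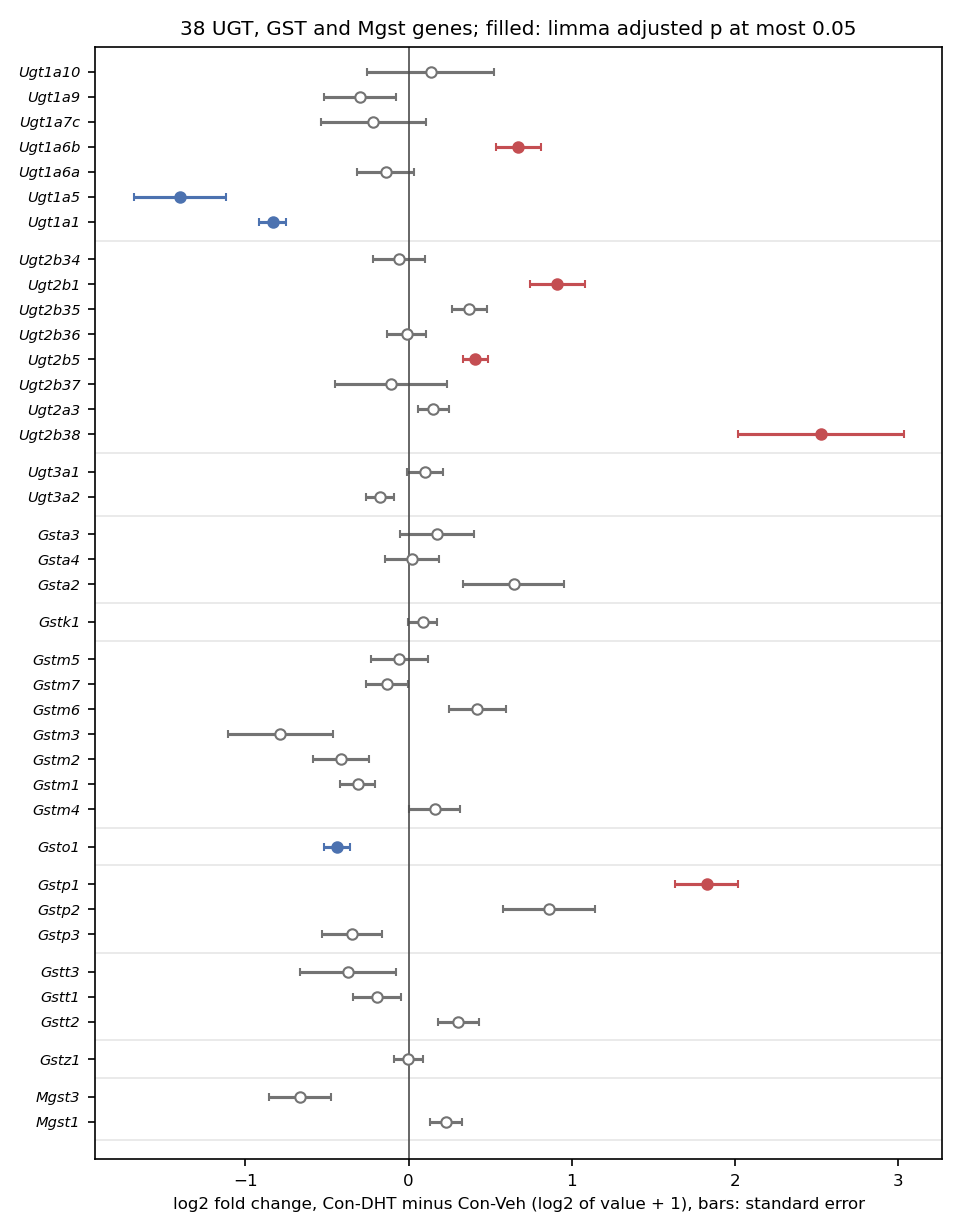
Each point is the limma log2FC (Con-DHT minus Con-Veh, on log2 of the value + 1) of one of the 38 members, grouped by family and ordered along the chromosome, with its standard error as the bar, and filled points passed an adjusted p of 0.05. The 8 filled points run from Ugt1a5 at -1.40 to Ugt2b38 at 2.52, and the 30 open points lie between -0.79 and 0.86.

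Levels can be set side by side between genes only per length, here as normalised read count per kilobase of annotated exon. Mgst1, a membrane GST that also reduces lipid peroxides, had the highest level of the GST and Mgst genes in both groups, with a mean per kilobase of 9500 for Con-Veh and 11110 for Con-DHT. Averaged over both groups, Gstm1 of the mu class and Gstp1 of the pi class came next, with 4583 and 3663 per kilobase for Gstm1 and 1308 and 4820 for Gstp1. Gstp1 stood above Gstm1 in Con-DHT. It stood below Gsta3 (1694), Gstt1 (1699) and Gstz1 (1540) per kilobase in Con-Veh and above all 3 in Con-DHT, where these were at 1958, 1496 and 1543. Among the UGT genes, over all annotated exon bases, Ugt2b5 had 2518 and 3338 per kilobase, Ugt2b36 had 2502 in both groups, and Ugt1a9 had 1843 and 1487. The place of the Ugt1 genes in this order depends on how their shared exons are treated, as described below. The lowest members per kilobase were Ugt2b38 (1.18 and 10.4), Ugt1a7c (6.46 and 5.52), Ugt1a10 (7.46 and 8.94) and Ugt2b37 (10.3 and 9.93).

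**Figure D2:**
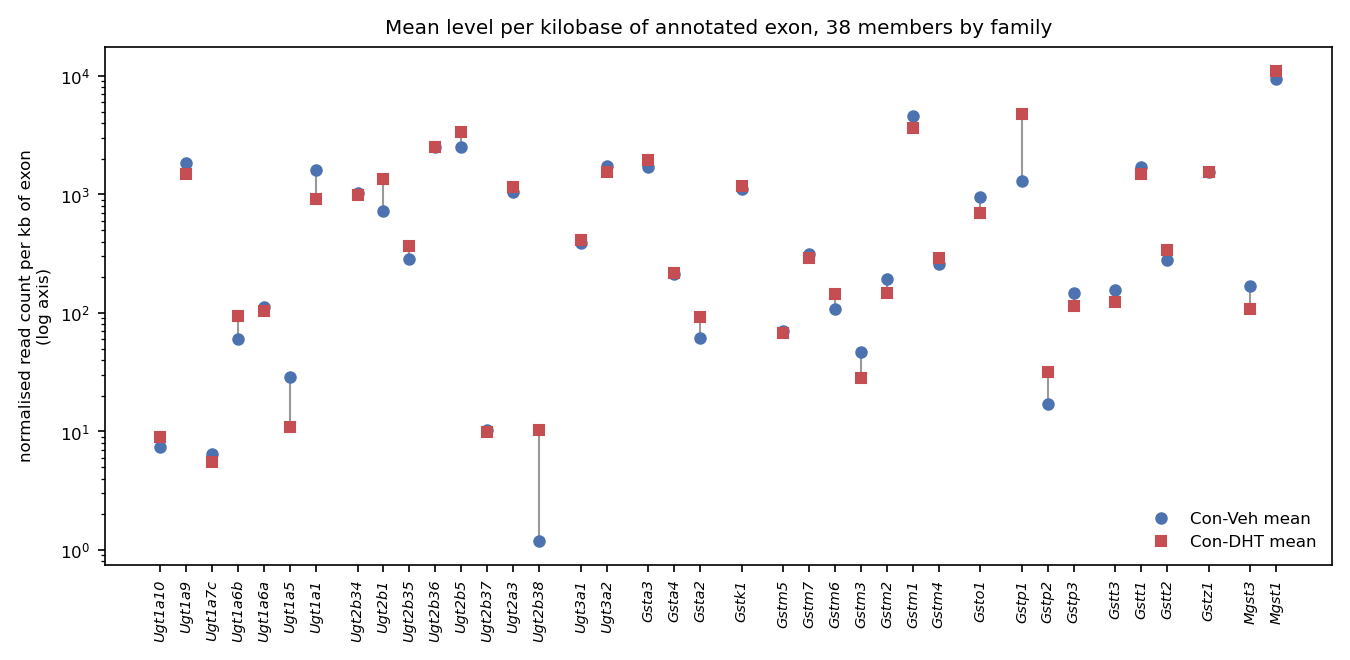
The mean normalised read count per kilobase of annotated exon is drawn on a log axis for each member, with circles for Con-Veh and squares for Con-DHT and a line joining the pair. Levels span from 1.18 per kilobase (Ugt2b38 in Con-Veh) to 11110 (Mgst1 in Con-DHT), and the longest lines belong to Ugt2b38, Gstp1 and Ugt1a5.

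The Ugt1 genes are a special case for counting. They lie on the plus strand of chromosome 1 as a row of alternative first exons joined to one common set of downstream exons. The first exon forms the part of the enzyme that binds the substrate and the common exons the part that binds the sugar donor. In GENCODE M21 (build GRCm38) the first exons run in the order Ugt1a10, Ugt1a9, Ugt1a7c, Ugt1a6b, Ugt1a6a, Ugt1a5, Ugt1a1 among the 7 genes measured. The join of exon 1 and exon 2 is shown for 5 of them, since reads of the lower-case part can name the gene, except between Ugt1a6a and Ugt1a6b, which are the same there, while reads of the capitals cannot; capitals mark the coding bases of the shared exon 2, and all are written 5′ to 3′ as in the GENCODE M21 transcripts.
Ugt1a1: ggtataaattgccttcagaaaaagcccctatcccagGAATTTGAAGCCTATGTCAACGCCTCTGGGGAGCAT
Ugt1a5: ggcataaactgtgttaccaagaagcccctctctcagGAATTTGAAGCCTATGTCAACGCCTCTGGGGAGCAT
Ugt1a6a: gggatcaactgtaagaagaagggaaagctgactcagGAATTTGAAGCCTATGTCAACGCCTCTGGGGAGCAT
Ugt1a6b: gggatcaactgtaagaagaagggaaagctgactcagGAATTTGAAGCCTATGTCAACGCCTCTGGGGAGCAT
Ugt1a9: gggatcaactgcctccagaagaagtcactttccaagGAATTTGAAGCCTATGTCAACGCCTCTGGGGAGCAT

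All 7 coding sequences share the same 735 bases from exon 2 onward, behind a first exon of 849 to 870 coding bases. Of the 150-base windows in each gene's transcripts, 49.1% to 74.5% also occur in another gene of the locus. The study counted uniquely mapped reads in exons, and how a read lying in the exons of several genes was treated is not given in the sources used here. The per-kilobase levels of Ugt1 genes depend on it. Over all annotated exon bases, Ugt1a10 and Ugt1a7c stood at 7.46 and 6.46 per kilobase in Con-Veh, beside 1843 for Ugt1a9. In Con-DHT they stood at 8.94 and 5.52, beside 1487 for Ugt1a9. All of these genes share the exons from exon 2 onward, so reads there were not added in full to every gene. Whether such reads were left out of the counts was not tested. Divided by the exon bases that no other gene shares, the same counts give Ugt1a1 9367 per kilobase in Con-Veh and 5276 in Con-DHT, and Ugt1a9 4591 and 3705. On that length both stand above Ugt2b5 (2518 and 3338), which shares no exon bases, so the order of the highest UGT genes changes.

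Ugt1a1, the enzyme that conjugates bilirubin, fell in the DHT-treated livers. Its normalised read counts were 3483, 3629.8, 3648 and 3665 in the 4 Con-Veh libraries and 1877, 2280.0, 2142 and 1826 in the 4 Con-DHT libraries. The Con-Veh libraries lay within a narrow band and every Con-DHT library stood well below it. The group means were 3606 ± 83.7 (SD, n = 4) and 2031 ± 216.1 (SD, n = 4), a log2FC of -0.83 (SE 0.08) with a limma adjusted p of 0.00044. Ugt1a1 also shares exons with Gm20528 in GENCODE M21, and 82.7% of its annotated exon bases belong to more than 1 gene.

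Ugt1a5 lies next to Ugt1a1 among the measured first exons and moved the same way at a far lower level. It had 66.0, 60.8, 44.9 and 83.6 normalised reads in Con-Veh and 19.6, 36.8, 15.3 and 25.002 in Con-DHT. The highest Con-DHT library stayed below the lowest Con-Veh library. The means were 63.8 ± 15.9 and 24.2 ± 9.29 (SD, n = 4 each), a log2FC of -1.40 (SE 0.28) with a limma adjusted p of 0.016. Without Con-Veh replicate 4 the adjusted p was 0.053.

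Ugt1a6b, a close copy of Ugt1a6a that is known to act on small planar phenols, moved the other way. It had 177.0, 147.7, 123.8 and 122.7 normalised reads in Con-Veh and 242.3, 238.1, 230.7 and 194.6 in Con-DHT, with no overlap between the groups. The means were 142.8 ± 25.5 and 226.4 ± 21.8 (SD, n = 4 each), a log2FC of 0.67 (SE 0.14) with a limma adjusted p of 0.017. This call rests on few libraries, since the adjusted p was 0.051 as its highest value when single libraries were left out, and it was lost without Con-Veh replicate 4 or Con-DHT replicate 1.

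Ugt1a6a itself had 366, 481, 521 and 587 normalised reads in Con-Veh and 366, 450.0, 589.9 and 375.0 in Con-DHT, so its groups overlapped, and its log2FC was -0.14 (SE 0.18, limma adjusted p = 0.69). The ratio of Ugt1a6b to Ugt1a6a within a library was 0.209 to 0.484 in Con-Veh and 0.391 to 0.662 in Con-DHT, and these ranges overlapped. The coding sequences of the pair differ at 26 of 1593 bases. The stretch from coding base 271 to 360, in exon 1, is shown because it holds 13 of these differences, in capitals, and so is where a read can be assigned to either copy.
Ugt1a6a: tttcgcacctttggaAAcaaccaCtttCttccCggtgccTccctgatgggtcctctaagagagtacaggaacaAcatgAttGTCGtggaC
Ugt1a6b: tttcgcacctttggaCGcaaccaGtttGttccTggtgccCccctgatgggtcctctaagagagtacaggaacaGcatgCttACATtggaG

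Ugt1a9, which acts on bulky phenols and many drugs, was the other abundant gene of the locus. Its values were 2553, 3916, 4711 and 4963 in Con-Veh and 2880.4, 4332, 3345 and 2471 in Con-DHT. The groups overlapped, with a log2FC of -0.30 (SE 0.22, limma adjusted p = 0.47). Ugt1a10 and Ugt1a7c, both under 35 normalised reads in every library, had adjusted p-values of 0.88 and 0.74. As a share of all Ugt1 reads, Ugt1a1 took 38.7% to 52.2% in Con-Veh and 30.9% to 37.0% in Con-DHT, and Ugt1a6b took 1.30% to 2.65% and 3.22% to 4.47%. Both shares separated the groups, while that of Ugt1a9 (38.2% to 52.5% and 50.1% to 58.7%) did not. The ratio of Ugt1a1 to Ugt1a9 within a library was 0.7385 to 1.36 in Con-Veh and 0.526 to 0.7391 in Con-DHT, which overlapped. The whole locus summed to 6674 to 9461 in Con-Veh and 4934 to 7382 in Con-DHT, which overlapped.

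The Ugt2 genes, whose enzymes conjugate steroids, bile acids and drugs, are separate whole genes on chromosome 5. Of 8 measured, 3 were called higher (37.5%, beside 4.60% of all genes tested) and 0 lower (beside 2.61%). With 8 genes, 0 lower calls is near the share of all genes. In GENCODE M21 the Ugt2 genes follow each other as Ugt2b34, Ugt2b1, Ugt2b35, Ugt2b36, Ugt2b5, Ugt2b37, Ugt2a3 and Ugt2b38, so the 3 called genes are not neighbours in the row. Their 150-base windows are not found in other genes, except for Ugt2b5 and Ugt2b38, which share 19.5% and 19.2% of theirs with each other.

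Ugt2b1 rose from 1481, 1733, 2276 and 1914 normalised reads in Con-Veh to 4193, 3744, 2481 and 3596 in Con-DHT. Con-DHT replicate 3 lay close above the highest Con-Veh library, and the other 3 stood well apart. The means were 1851 ± 334 and 3504 ± 727 (SD, n = 4 each), a log2FC of 0.91 (SE 0.17) with a limma adjusted p of 0.011. Its ratio to Ugt2b34, the gene beside it, was 0.388 to 0.446 in Con-Veh and 0.546 to 1.20 in Con-DHT within a library.

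Ugt2b5, an abundant UGT of mouse liver, rose by a smaller factor. Its values were 4372, 4832, 5056 and 4453 in Con-Veh and 6125, 6111, 6664 and 5909 in Con-DHT, and the groups were clearly separate. The means were 4678 ± 322 and 6202 ± 323 (SD, n = 4 each), a log2FC of 0.41 (SE 0.08) with a limma adjusted p of 0.012. Its ratio to Ugt2b36 was 0.861 to 0.939 in Con-Veh and 1.05 to 1.48 in Con-DHT. As a share of all Ugt2 reads it took 23.5% to 25.2% in Con-Veh and 24.7% to 29.6% in Con-DHT, which overlapped.

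Ugt2b38 had the largest fold change of the 38 members, at the lowest level. Ugt2b38 entered the fit only through its Con-DHT values, so that rank is not independent of the filter. It was counted with 1 to 3 reads in each Con-Veh library, 9 in all, and with 8 to 33 reads in each Con-DHT library, 77 in all. As normalised read counts these were 3.30, 2.90, 0.998 and 1.74 in Con-Veh and 32.4, 7.74, 11.2 and 27.2 in Con-DHT. The ratio of the groups was 8.87 with an exact 95% counting interval of 4.44 to 20.1, which covers counting error only. The limma log2FC, 2.52 (SE 0.51, adjusted p = 0.015), depends on the pseudocount and ranged from 1.64 to 3.15 over the alternatives.

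The coding sequences of Ugt2b38 and Ugt2b5 differ at 47 of 1590 bases. Ugt2b5 had far more reads, and whether reads of it were placed on Ugt2b38 was not tested. The coding bases 1422 to 1511 are shown, from the minus strand of the chromosome, because they hold 10 of the differences, in capitals.
Ugt2b5: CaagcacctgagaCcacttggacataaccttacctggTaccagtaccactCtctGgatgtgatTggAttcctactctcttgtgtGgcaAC
Ugt2b38: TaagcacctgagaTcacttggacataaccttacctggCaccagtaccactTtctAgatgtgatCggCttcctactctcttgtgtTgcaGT

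Of the other Ugt2 genes, Ugt2b35 did not overlap between the groups (923 to 991 in Con-Veh and 1000.1 to 1418 in Con-DHT) and missed the threshold, with a log2FC of 0.37 (SE 0.11) and a limma adjusted p of 0.067. Ugt2b36 had 4656, 5310.0, 5474 and 5171 in Con-Veh and 5150, 5797, 5658 and 4002 in Con-DHT, a log2FC of -0.01 (SE 0.12, limma adjusted p = 0.97). Ugt2b34, Ugt2b37 and Ugt2a3 had log2FCs of -0.06, -0.11 and 0.15 with limma adjusted p-values of 0.86, 0.89 and 0.39. The Ugt2 family summed to 17483 to 21534 in Con-Veh and 19972 to 24768 in Con-DHT. The Ugt3 genes, whose enzymes use other sugars than glucuronic acid, had log2FCs of 0.10 (Ugt3a1) and -0.18 (Ugt3a2) and limma adjusted p-values of 0.63 and 0.27.

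**Figure D3:**
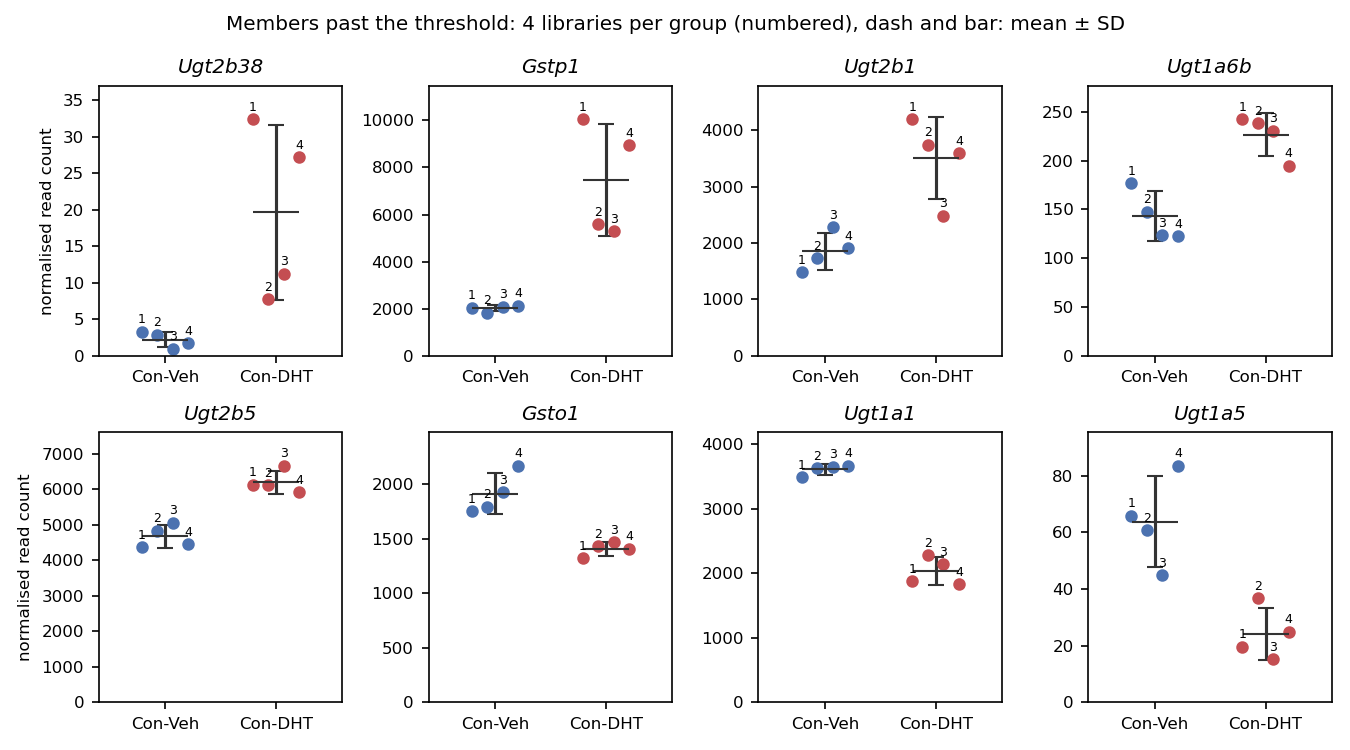
Normalised read counts of the 8 called members are drawn for each library (points, numbered by replicate) on axes that start at 0, with the group mean and SD as dash and bar. Con-Veh and Con-DHT do not overlap in any panel, and in Con-DHT replicates 1 and 4 lie above replicates 2 and 3 for Gstp1 (10047 and 8931 against 5584 and 5283) and for Ugt2b38.

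Gstp1, the pi class enzyme that conjugates small electrophiles, was the GST gene with the strongest response. It had 2053, 1837, 2083 and 2125 normalised reads in Con-Veh and 10047, 5584, 5283 and 8931 in Con-DHT. Every Con-DHT library exceeded every Con-Veh library by far, and the Con-DHT libraries fell into a higher and a lower pair. The means were 2025 ± 129 and 7461 ± 2389 (SD, n = 4 each), a ratio of 3.69 and a log2FC of 1.83 (SE 0.19) with a limma adjusted p of 0.0006. The call was kept in all 8 fits lacking a single library, with log2FCs of 1.66 to 1.97.

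The same Con-DHT replicates 1 and 4 were high for Ugt2b38 and had the larger share of reads on the major urinary protein (Mup) genes, a set of secreted pheromone carriers known to be high in male liver. That share was 1.03% and 1.09% in replicates 1 and 4 and 0.733% and 0.572% in replicates 2 and 3, beside 0.145% to 0.3603% in Con-Veh. Other members that rose had another order. Con-DHT replicate 4 was the lowest of its group for Ugt2b5 (5909) and Ugt1a6b (194.6). For Ugt2b1, Con-DHT replicate 4 (3596) lay below replicate 2 (3744). With 4 libraries these orders are given as values without a test.

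Gstp1 has a close copy on the same minus strand of chromosome 19, Gstp2, from which it differs at 12 of 630 coding bases. Gstp3, the other gene of the class, differs from it at 178. The first 90 coding bases of the 3 genes are shown because they tell which transcripts a read can name; capitals in Gstp1 mark bases at which either of the others differs, and capitals in Gstp2 and Gstp3 mark bases that differ from Gstp1.
Gstp1: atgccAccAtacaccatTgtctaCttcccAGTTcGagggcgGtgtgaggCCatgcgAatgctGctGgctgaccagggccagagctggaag
Gstp2: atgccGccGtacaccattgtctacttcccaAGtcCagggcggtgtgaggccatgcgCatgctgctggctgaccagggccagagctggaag
Gstp3: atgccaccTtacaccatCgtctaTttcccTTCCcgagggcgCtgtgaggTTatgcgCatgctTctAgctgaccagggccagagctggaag

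Of the 150-base windows of Gstp1, 17.6% also occur in Gstp2 or the pseudogene Gstp-ps, and 35.7% of those of Gstp2 occur in Gstp1 or Gstp-ps. Gstp2 had 20.9, 11.6, 20.0 and 23.5 normalised reads in Con-Veh and 41.2, 37.7, 22.5 and 39.1 in Con-DHT, a log2FC of 0.86 (SE 0.28, limma adjusted p = 0.099). Its groups overlapped, since Con-DHT replicate 3 lay below Con-Veh replicate 4. Gstp-ps, which is no member and shares windows with Gstp1, had 4.83 to 14.3 in Con-Veh and 17.4 to 43.2 in Con-DHT (limma adjusted p = 0.056). Its highest libraries were Con-DHT replicates 1 and 4.

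Gstp3 gave 109.8 to 181.9 normalised reads in Con-Veh and 85.9 to 122.9 in Con-DHT, a log2FC of -0.35 (SE 0.19, limma adjusted p = 0.30). None of its windows occur in another gene. The ratio of Gstp1 to Gstp3 within a library was 11.7 to 19.0 in Con-Veh and 45.4 to 106.7 in Con-DHT. The ratio of Gstp1 to Gstp2 was 90.4 to 158.6 and 147.9 to 243.8, which overlapped.

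Gsto1, the omega class enzyme that reduces dehydroascorbate and mixed disulfides of glutathione, was the GST gene that fell. Its values were 1754, 1794, 1927 and 2171 in Con-Veh and 1322, 1430.3, 1469 and 1409 in Con-DHT. The Con-DHT libraries were close to each other and all lay below Con-Veh. The means were 1912 ± 188 and 1408 ± 61.9 (SD, n = 4 each), a log2FC of -0.44 (SE 0.08) with a limma adjusted p of 0.010. Its ratio to Gstk1, a GST of mitochondria and peroxisomes, was 1.01 to 1.33 in Con-Veh and 0.759 to 0.886 in Con-DHT.

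Mgst1 and Gstm1 missed the threshold. Mgst1 had 17459, 21586, 18586 and 18863 normalised reads in Con-Veh and 22092, 22499, 22006 and 22862 in Con-DHT. The groups did not overlap and the Con-DHT libraries were close to each other, while the log2FC was 0.23 (SE 0.10) with a limma adjusted p of 0.18. Gstm1, a mu class enzyme with broad substrates, had 5736, 6079, 7225 and 7961 in Con-Veh and 5315, 5545, 5752 and 4971 in Con-DHT, a log2FC of -0.31 (SE 0.11, limma adjusted p = 0.12). As a share of all GST and Mgst reads Gstm1 took 11.2% to 14.2% in Con-Veh and 8.42% to 9.41% in Con-DHT, and Gstp1 took 3.39% to 4.37% and 8.64% to 16.7%. The GST and Mgst genes together summed to 47018 to 56146 in Con-Veh and 59010 to 64430 in Con-DHT without overlap. The mean sums were 53330 ± 4301 and 61178 ± 2332 (SD, n = 4 each). These sums include Gstp1, whose mean went from 2025 to 7461. They also include Mgst1, which was not called and whose mean went from 19123 to 22365. The median log2FC of the 21 genes was -0.001, so the sums do not show a rise of the genes in general.

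The remaining families gave no call. In the mu class the 7 genes had log2FCs of -0.79 (Gstm3) to 0.42 (Gstm6), a median of -0.13 and limma adjusted p-values from 0.12 to 0.88. Gstm3 was at 48.4 to 75.7 normalised reads in Con-Veh and 20.7 to 54.2 in Con-DHT, and Gstm6 at 177.6 to 268 and 206.5 to 335, so both overlapped. In the alpha class, whose enzymes include Gsta4, which detoxifies the lipid peroxidation product 4-hydroxynonenal, the 3 genes ran from 0.02 (Gsta4) to 0.64 (Gsta2) with limma adjusted p-values from 0.25 to 0.96. Gsta2 was uneven within the groups, at 38.6 to 107.9 normalised reads in Con-Veh and 75.0 to 130.6 in Con-DHT, and so was Gsta3, at 5522 to 9213 and 5896 to 11799. The theta class ran from -0.37 (Gstt3) to 0.31 (Gstt2). Gstk1 was at 0.09 and Gstz1, the maleylacetoacetate isomerase of tyrosine breakdown, at -0.001 with an SE of 0.09. Mgst3 had 142 to 210 normalised reads in Con-Veh and 92.2 to 164 in Con-DHT, a log2FC of -0.66 (SE 0.19) and a limma adjusted p of 0.063.

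**Figure D4:**
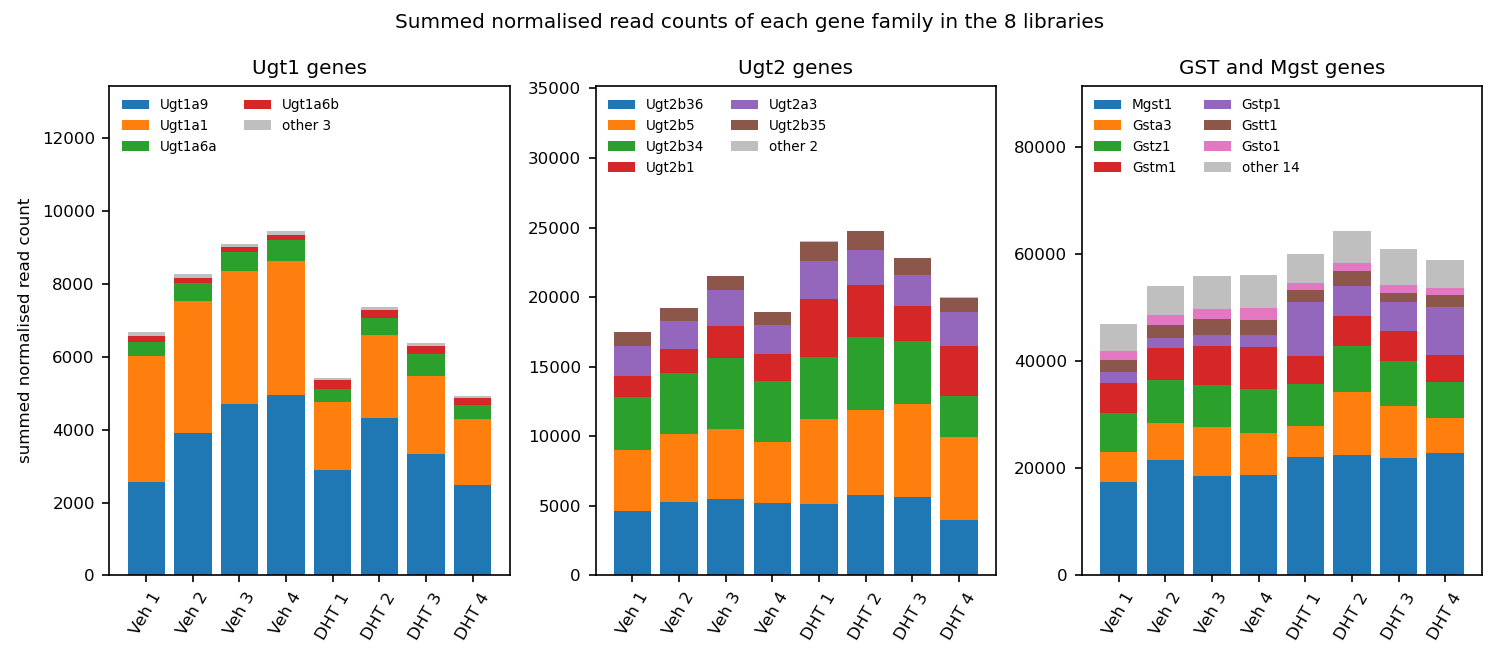
Stacked bars give the normalised read counts of the named members in each of the 8 libraries, in separate panels for the Ugt1 genes, the Ugt2 genes and the GST and Mgst genes, with all other members of the panel in grey. The Ugt1a1 segment is smaller in every Con-DHT bar and the Gstp1 segment is larger in every Con-DHT bar. The GST and Mgst bars, which include Gstp1 and Mgst1, reach 47018 to 56146 in Con-Veh and 59010 to 64430 in Con-DHT.

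The spread within a group, as the SD over the mean, differed widely between members. It was smallest for Mgst1 in Con-DHT (1.77%), Ugt1a1 in Con-Veh (2.32%) and Ugt2b35 in Con-Veh (3.06%). It was largest for Ugt2b38 (47.2% in Con-Veh and 61.1% in Con-DHT) and was 51.8% for Ugt2b37 in Con-DHT, both with few reads. For Gstp1 it was 6.36% in Con-Veh and 32.02% in Con-DHT. Con-Veh replicate 1 had the lowest value of its group for 20 of the 38 members and Con-DHT replicate 4 for 19 of them. For Ugt1a9 both were the lowest of their groups, at 2553 and 2471. The 8 called members kept their direction in every fit lacking a library.

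Genes around the same reactions were read from lists of 60 genes, of which 55 were measured. Of these, 7 passed the test (12.7%, beside 7.21% of all genes), 3 higher and 4 lower, with a median log2FC of -0.11. The count was 2 to 6 when single libraries were left out, and 2 without Con-Veh replicate 4. Of the genes described here, Abcc1, Cyp3a11, Hmox1 and Nfe2l2 lost their calls under spike-in scaling, with limma adjusted p-values of 0.083, 0.17, 0.87 and 0.93. Cyp2b10 gained a call under that scaling (log2FC -1.67, limma adjusted p = 0.00028).

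Among the suppliers of glucuronic acid (Ugp2, Ugdh, Slc35d1, Slc35d2) and the glucuronidase Gusb, 0 of 5 passed, and all 5 had negative log2FCs, which became 4 of 5 with an equal total without the Mup genes and 1 of 5 under spike-in scaling. Gusb had the largest, -0.28 (SE 0.11, limma adjusted p = 0.16). Of 17 measured genes of glutathione synthesis and turnover, Slc7a11 passed (5.88%, beside 7.21% of all genes). This cystine importer had 13.2, 47.3, 32.9 and 36.6 normalised reads in Con-Veh and 153.0, 80.3, 67.4 and 88.1 in Con-DHT, a log2FC of 1.61 (SE 0.38, limma adjusted p = 0.030). The call was kept in 3 of the 8 fits lacking a single library, with limma adjusted p-values up to 0.076.

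Of 7 ATP-driven exporters of conjugates, 2 rose (28.6%, beside 4.60% of all genes called higher). Abcg2, which exports sulfated and glucuronidated compounds into bile, had 346, 368, 381 and 379 normalised reads in Con-Veh and 838, 727, 576 and 822 in Con-DHT. The groups stood well apart, with a log2FC of 0.99 (SE 0.12) and a limma adjusted p of 0.0010. Abcc1, an exporter of glutathione conjugates, rose from a mean of 35.5 ± 10.1 to 63.0 ± 6.82 (SD, n = 4 each), a log2FC of 0.84 (SE 0.21) with a limma adjusted p of 0.036. Its call was kept in 1 of the 8 fits lacking a single library. Of 5 measured genes with a related protein fold, 0 passed, and Gdap1 had the largest log2FC of 0.40 (SE 0.42, limma adjusted p = 0.62).

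Of 10 transcription factors and partners that are known to control these genes, 2 passed the test, both lower, and 1 of them is described here. That is 20.0%, beside 2.61% of all genes called lower. Nfe2l2, the NRF2 factor that drives the antioxidant response, fell from 984 ± 68.1 to 745 ± 68.3 (SD, n = 4 each), a log2FC of -0.40 (SE 0.09) with a limma adjusted p of 0.021. Its call was kept in 9 of 13 alternative settings and in 6 of the 8 fits lacking a single library. Among the latter it was lost without Con-Veh replicate 3 or Con-Veh replicate 4. Ahr had the largest log2FC of the list, -0.47 (SE 0.14), without overlap and with a limma adjusted p of 0.070.

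Of 11 measured genes known to be induced by these factors, Cyp3a11 and Hmox1 fell (18.2%, beside 2.61% of all genes called lower). Cyp3a11, a target of the pregnane X receptor, fell from 26664 ± 6850 to 13365 ± 3748 (SD, n = 4 each), a log2FC of -1.01 (SE 0.23) with a limma adjusted p of 0.028 that was kept in 4 of the 8 fits lacking a single library. Hmox1, the heme oxygenase induced by NRF2, had a log2FC of -0.56 (SE 0.12, limma adjusted p = 0.021), kept in 6 of those 8 fits. Nqo1, Txnrd1 and Srxn1 of the same list did not pass. Their log2FCs were -0.54, -0.04 and 0.05, with limma adjusted p-values of 0.31, 0.83 and 0.85. NRF2 activity was not tested. Cyp2b10 had the largest log2FC of the list, -1.86 (SE 0.65), and a limma adjusted p of 0.12.

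Promoter windows of the members were searched in RefSeq sequence (GRCm38.p6, from 250 bases before to 50 bases after each start, both strands) for a STAT5-type motif, TTCNNNGAA, and for the core of the antioxidant response element, TGACNNNGC. The first occurs in 8.30% of 32851 promoter windows and, among the 42 windows of 34 members, in those of Gstm6, Mgst1 and Ugt1a6a. The second occurs in 12.4% of all windows and among the members in those of Gsta3, Gstm5, Gstm7 and Mgst1. Of the 8 called members 7 had a window, and 0 of these windows held either motif.

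**Figure D5:**
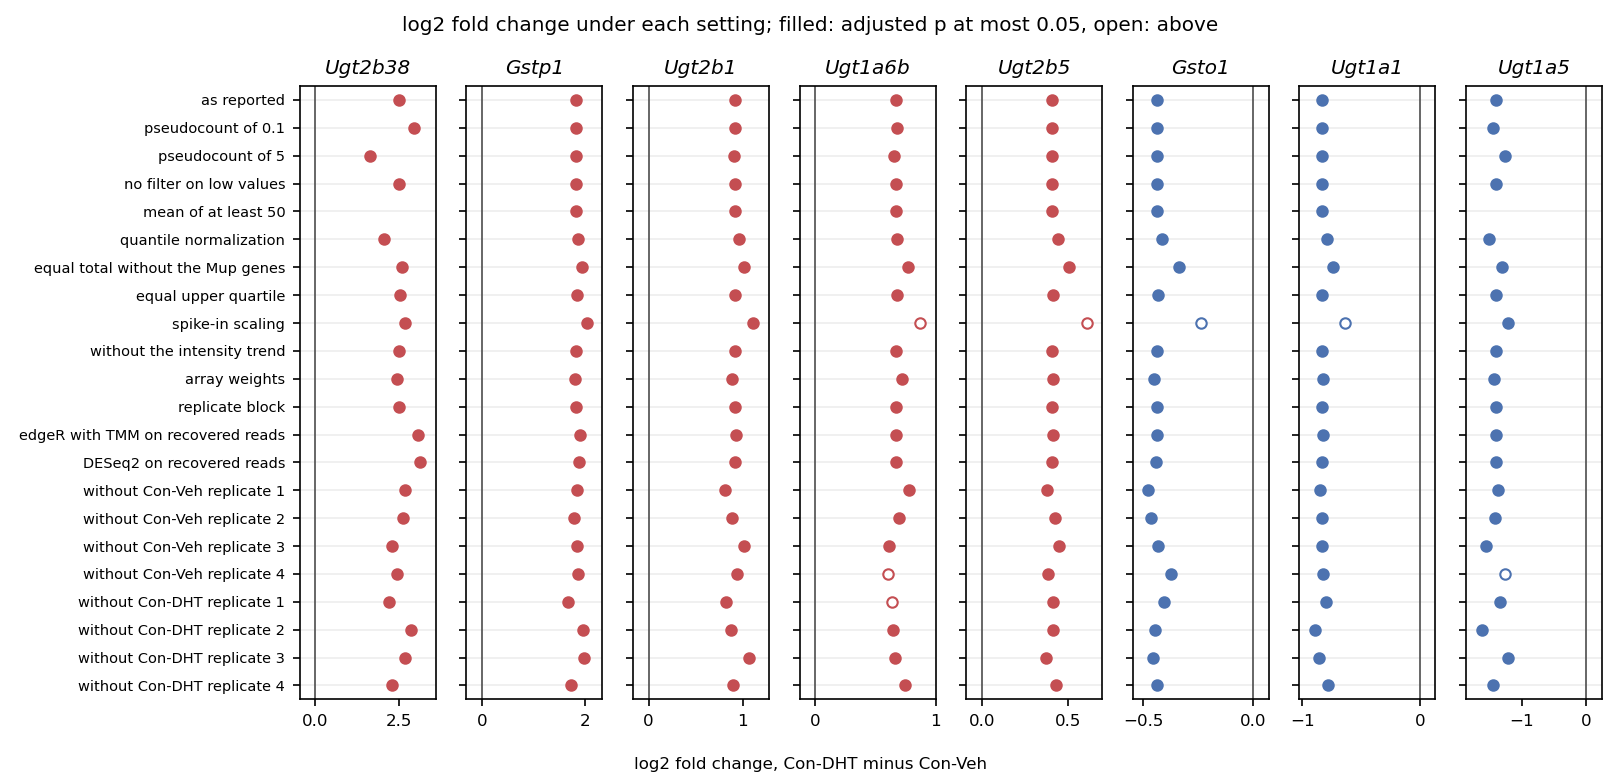
The log2FC (Con-DHT minus Con-Veh) of each called member is drawn under the reported setting, the alternative settings and the fits without a single library, with filled points at an adjusted p of at most 0.05. Every point stays on its side of 0, with open points for Ugt1a6b, Ugt2b5, Gsto1 and Ugt1a1 under spike-in scaling, for Ugt1a6b and Ugt1a5 without Con-Veh replicate 4, and for Ugt1a6b without Con-DHT replicate 1.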

How the data were processed

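Total liver RNA with ERCC spike-in RNA was made into NEBNext Ultra II libraries and sequenced as paired 150-base reads. The submitters' processing notes name Trimmomatic, STAR, featureCounts of Subread, DESeq2 and the build GRCm39. The deposited signal values are read counts per gene that the authors divided by a DESeq2 size factor, and division by the value of 1 read gave whole reads (within 0.01) for 100% of values. Symbols came from GENCODE M21 (GRCm38), so no gene coordinates are given.

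Genes averaging 10 or more over the 8 libraries (14312 mouse genes) were tested as log2(value + 1) with limma 3.58.1 under R 4.3.3, using lmFit and eBayes with trend=TRUE. Two-sided p-values were adjusted over all of them by Benjamini-Hochberg, at a threshold of 0.05. The fit used the 4 Con-Veh and 4 Con-DHT libraries without covariates, grouped by the labelled treatment. Fold changes of low genes are understated on this scale. edgeR 4.0.16 and DESeq2 1.42.0 were run on the recovered reads. The model was tested on simulated data at the same threshold. There 4.37% of limma calls, 4.89% of edgeR calls and 15.0% of DESeq2 calls were false, so the genes added by DESeq2 are less certain. The members and lists were chosen with earlier results of these data known. Named were the members past the threshold or without overlap, the 3 highest UGT and GST genes per kilobase, and, of each pathway list, the genes past the threshold and the gene with the largest log2FC. Most other members are given by ranges, and Ugt1a6a and Gstp2, the close copies of called genes, were added by library after their values were seen. Alternatives were other pseudocounts, filters, scalings, fits and tools, and leaving out each library. Replicates of a group differed by 19.1 to 61.2 times the sampling noise (chi-square per degree of freedom, 12 pairs), so none was counted once with another. A result on 1 transcription factor and a detail of the animals' genotype are not reported here.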

Additional observations from a re-analysis of the deposited data

Results flagged for a closer look

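In 4 of the 76 groups of 4 libraries (38 members in each treatment group), a single library stood apart from the other 3 by a gap above Dixon's critical value for 4 values, and about 1 in 20 such groups is expected to do so by chance. Gsta4 was at 207 in Con-DHT replicate 4 and at 290.3 to 306 in the others. Gstm7 was at 589 in Con-DHT replicate 3 and at 405 to 435 in the others. Ugt2b37 was at 28.7 in Con-Veh replicate 4 and at 15.4 to 17.6 in the others of that group, and at 33.4 in Con-DHT replicate 1 and at 13.0 to 15.3 in the others of that group. None of these genes passed the test.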

How the results depend on the processing

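Of 49 genes recomputed (the 38 members and 11 pathway genes), 12 changed sign under some alternative, and 0 of these were called. The 8 calls among the members became 4 under spike-in scaling, 3 higher and 1 lower, where the calls of Ugt1a1, Ugt2b5, Ugt1a6b and Gsto1 were lost; the cause was not tested. Spike-in reads were 1.68% to 3.61% of reads in Con-Veh and 2.22% to 2.75% in Con-DHT, and this scaling moved the median log2FC of all genes to 0.19. The log2FCs were then -0.63 for Ugt1a1, 0.61 for Ugt2b5, 0.87 for Ugt1a6b and -0.24 for Gsto1, and relative to that median -0.82, 0.42, 0.68 and -0.43. With a mean of at least 50 the members called were 6, since Ugt1a5 and Ugt2b38 were not in that fit. Leaving out each library gave 6 to 9 calls, 4 to 6 higher and 2 to 4 lower, with 6 without Con-Veh replicate 4.

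The 7 calls among the related pathway genes became 3 under spike-in scaling, 3 without the intensity trend and 11 with DESeq2, and 2 to 6 when each library was left out, with 2 without Con-Veh replicate 4, 3 without Con-Veh replicate 3 or Con-DHT replicate 4 and 4 without Con-DHT replicate 1; the cause was not tested. Libraries with the same replicate number did not deviate together (correlations of -0.19 to -0.006), so they share only a number. With that number as a replicate block, 9 members (Mgst3 added, 5 higher and 4 lower) and 1 pathway gene were called. Depth limits Ugt2b38, with 1 to 3 reads in each Con-Veh library.

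The sign changes, with their values, were as follows. Spike-in scaling gave 0.19 for Ugt2b36, 0.14 for Gstm5, 0.066 for Gstm7, 0.0078 for Gstt1, 0.20 for Gstz1, 0.058 for Ugt1a6a, 0.14 for Ugt2b34, 0.076 for Ugt2b37 and 0.024 for Ugt3a2. An equal total without the Mup genes gave 0.086 for Ugt2b36, 0.039 for Gstm5, 0.097 for Gstz1 and 0.039 for Ugt2b34. Quantile normalization gave 0.023 for Ugt2b36, 0.031 for Gstz1 and -0.059 for Ugt1a10. Ugt2b36 was at 0.0097 with array weights and 0.0035 with edgeR. Gstz1 was at 0.0030 with an equal upper quartile, 0.0073 with array weights, 0.0071 with edgeR and 0.0024 with DESeq2. Leaving out each library gave -0.074 to 0.10 for Ugt2b36, -0.00063 to 0.33 for Gsta3, -0.10 to 0.15 for Gsta4, -0.17 to 0.062 for Gstm5, -0.046 to 0.067 for Gstz1, -0.11 to 0.51 for Ugt1a10, -0.16 to 0.10 for Ugt2b34 and -0.41 to 0.088 for Ugt2b37.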
